A study of Homo sapiens with 16 samples.

Results

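The 32 genes described here make, sense, move, store or export cholesterol. They were listed by their place along the pathway, with earlier results of these data known. Each was looked up by its symbol in a table of 60642 gene symbols. All 32 were present and all 32 were among the 16636 genes that reached 1 TPM (transcripts of a gene scaled for its length and for the library total) in at least 2 of 16 libraries. The list does not hold every gene of the pathway. RNA was measured by bulk sequencing in LNCaP, a human prostate cancer line that responds to androgens. All groups shared 72 h of culture with 5% serum and then a 48 h stay in medium with 5% charcoal-stripped serum, which carries little steroid, before a 48 h treatment. VEH received ethanol and DMSO, the 2 solvents, and DHT received 10 nM dihydrotestosterone, a potent androgen. BIC.VEH, ENZ.VEH and APA.VEH received 10 µM of the antiandrogen bicalutamide, enzalutamide or apalutamide without DHT, and BIC.DHT, ENZ.DHT and APA.DHT received the same drug together with 10 nM DHT. Each of the 8 groups had 2 libraries, labelled as biological replicates of this single cell line, so p-values measure only the spread between these libraries and say nothing of other lines, doses or times.

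Cholesterol is built from acetyl-CoA through mevalonate, isoprenoid phosphates, squalene and lanosterol, and the same early steps feed other isoprenoids. When membrane sterol is low, the SCAP protein escorts the precursors encoded by SREBF1 and SREBF2 out of the endoplasmic reticulum, and the released fragments switch on genes of synthesis and uptake. The INSIG1 and INSIG2 proteins hold SCAP back when sterol is plentiful, while liver X receptors, of which NR1H2 encodes a form, respond to oxysterols and switch on the exporters ABCA1 and ABCG1.

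Promoter sequence is shown for 5 members on which the results turn: INSIG1 and HMGCS1, which had the highest fold changes with DHT together with EBP, then INSIG2, the other INSIG gene, which moved the other way, and SREBF2, the factor of this pathway. Each stretch is the 250 bases before the annotated start, 5′ to 3′ on the strand of the gene, taken from RefSeq on GRCh38.p14: INSIG1 at chr7:155297628-155297877 (plus strand), INSIG2 at chr2:118088221-118088470 (plus), HMGCS1 at chr5:43313413-43313662 (minus), EBP at chrX:48521558-48521807 (plus) and SREBF2 at chr22:41832855-41833104 (plus). Capitals mark the NF-Y box CCAAT, which reads as ATTGG when it lies on the other strand, the E-box CACGTG and the sterol response element TCACNCCAC.
INSIG1: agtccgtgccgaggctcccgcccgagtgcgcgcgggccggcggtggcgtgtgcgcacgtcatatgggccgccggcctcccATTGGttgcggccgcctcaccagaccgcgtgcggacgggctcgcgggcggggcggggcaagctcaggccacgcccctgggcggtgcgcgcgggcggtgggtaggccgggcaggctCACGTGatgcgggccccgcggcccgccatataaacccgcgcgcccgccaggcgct
INSIG2: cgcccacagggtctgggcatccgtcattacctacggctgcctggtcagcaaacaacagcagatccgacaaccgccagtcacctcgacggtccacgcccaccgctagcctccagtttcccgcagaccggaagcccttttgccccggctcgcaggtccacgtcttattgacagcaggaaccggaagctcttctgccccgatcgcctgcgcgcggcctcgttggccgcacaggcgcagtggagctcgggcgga
HMGCS1: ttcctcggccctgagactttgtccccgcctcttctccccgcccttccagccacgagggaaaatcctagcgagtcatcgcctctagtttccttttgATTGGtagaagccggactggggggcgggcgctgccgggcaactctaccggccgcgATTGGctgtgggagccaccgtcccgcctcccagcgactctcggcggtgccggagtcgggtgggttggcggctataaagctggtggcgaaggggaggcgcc
EBP: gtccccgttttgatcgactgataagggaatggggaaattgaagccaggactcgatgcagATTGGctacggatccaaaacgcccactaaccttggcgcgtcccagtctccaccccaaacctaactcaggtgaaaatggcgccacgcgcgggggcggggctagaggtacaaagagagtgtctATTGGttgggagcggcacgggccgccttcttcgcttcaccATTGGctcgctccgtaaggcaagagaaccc
SREBF2: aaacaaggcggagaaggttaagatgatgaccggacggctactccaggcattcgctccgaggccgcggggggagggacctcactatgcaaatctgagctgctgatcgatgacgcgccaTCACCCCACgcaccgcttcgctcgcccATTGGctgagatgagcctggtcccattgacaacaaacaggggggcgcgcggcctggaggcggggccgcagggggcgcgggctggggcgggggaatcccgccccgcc

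The 2 INSIG promoters differed in these letters. INSIG1 held 1 NF-Y box, 170 bases before the start, and 1 E-box at 55, and INSIG2 held neither. HMGCS1 had NF-Y boxes at 155 and 100 bases and EBP at 191, 70 and 30 bases. In SREBF2 the sterol response element began 133 bases before the start, with an NF-Y box at 106. Of the 32 members, 27 matched the promoter table by symbol and 5 did not (ACAT2, FDFT1, SQLE, ABCG1 and SCARB1). On either strand, an NF-Y box lay in 17 of the 27 (63%, against 33% of 27305 promoters of the same length), an E-box in 4 (14.8% against 6.49%) and the sterol response element in 1 (3.7% against 0.875%). The GC box GGGCGG, left in lower case above, lay in 25 of the 27 (92.6% against 42.3%). Matches of different motifs may overlap, as a GC box on the other strand can share its last letters with an NF-Y box. The 27305 promoters compared against were not limited to genes tested here, so the level of expression was not matched. The androgen response element's short core AGAACA lay in 1 promoter, that of PMVK (3.7% against 12.4%). These are letter matches within 250 bases and describe neither binding nor a cause, and elements farther from the start were not searched.

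Mitochondrial genes held 22.3% and 14.7% of DHT replicates 1 and 2, the highest and the lowest share of the 16 libraries, and 14652 (DHT replicate 1) to 15360 genes reached 1 TPM. The part of this share in the results was not tested. All 7 luminal prostate markers listed, among them KRT8, KRT18, FOLH1 and HOXB13, passed 1 TPM in all 16 libraries. Of 11 markers of basal, fibroblast, leukocyte and endothelial cells, CD3E was listed at 0 in every library, COL1A1 reached 11.4 to 32.6 TPM, VWF 0.61 to 1.9 TPM and KRT14 at most 1.68 TPM, and the rest stayed below 1 TPM. Their sum was 14.6 and 18.4 TPM with DHT and 18.1 to 34.2 TPM elsewhere. The summed level of 3 genes of dividing cells (MKI67, TOP2A and MCM2) was 23.5 and 52.5 TPM in VEH, 59.2 and 113.6 TPM with DHT, 37.6 and 77 TPM in BIC.DHT, 12.8 and 51.9 TPM in ENZ.DHT and 16.7 and 52.6 TPM in APA.DHT. The lower value was replicate 1 in each of these groups. The sum was higher with DHT than in VEH within either replicate number, and 24 members lay above both VEH libraries in each DHT library (25.3% and 35.1% of all genes in replicates 1 and 2). The part of these markers in the results below was not tested.

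The members spanned a wide range of levels, in TPM, which is scaled for gene length. TM7SF2, a sterol reductase of the late steps, was the highest, with 296 to 669 TPM across the 16 libraries. SREBF1 followed with 308 to 521 TPM, then FDFT1 with 128.2 to 422 TPM and FDPS with 98.2 to 223 TPM. SREBF2 ran from 40.4 to 135 TPM. The other 27 members had medians over the libraries between 0.83 TPM (ABCA1) and 84.2 TPM (NPC2). ABCA1, the exporter that hands cholesterol to apolipoproteins, reached 1 TPM in VEH replicate 2 and APA.VEH replicate 2 only, and so passed the filter through those 2 libraries.

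DHT raised most of the list. With limma on log2(TPM + 1), fitted to all genes and adjusted by Benjamini-Hochberg, 17 of 32 members rose and 2 fell in DHT against VEH at an adjusted p below 0.05. Over all genes 3.63% were called higher and 6.64% lower. The median log2 fold change was 0.57 over the members and -0.10 over all genes tested. Scaling libraries by the median ratio moved the median of all genes from -0.10 to 0.0087 and the split of all calls from 604 higher and 1105 lower to 1046 higher and 860 lower, and left 18 members higher and 2 lower. In bulk RNA, a change in the share of cells that carry a transcript and a change in its amount per cell cannot be told apart.

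**Figure D1:**
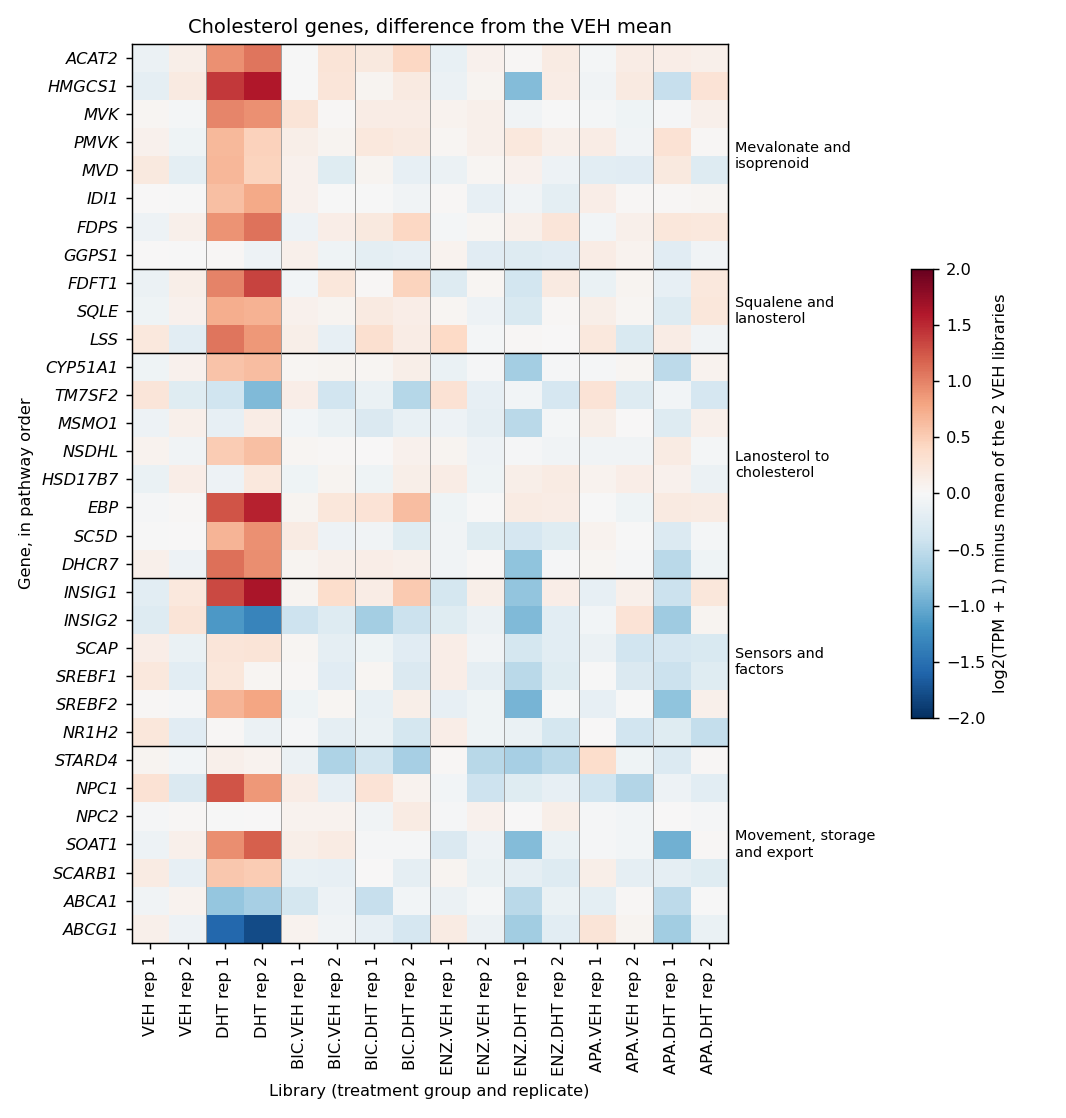
Difference of each library from the mean of the 2 VEH libraries on log2(TPM + 1), with the 32 genes in pathway order down the side and the 16 libraries across. Both DHT libraries stand above the other 14 libraries for 21 genes and below them for 3 (INSIG2, ABCA1 and ABCG1). Of all genes tested, 10.5% stand above and 13.9% below in this way. ABCA1 passed the filter only through VEH and APA.VEH libraries, where it was high, so its place below supports nothing. Replicate 1 of ENZ.DHT and of APA.DHT lies below both VEH libraries for 20 and 19 of the 32 genes, as it does for 52.9% and 53.2% of all genes.

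Separation of the DHT libraries was seen without any test. In 21 of the 32 members both DHT libraries lay above each of the other 14 libraries (10.5% of all genes did so). In 3, INSIG2, ABCG1 and ABCA1, both lay below (13.9% of all genes). ABCA1 passed the filter only through VEH and APA.VEH libraries, where it was high, so its place below supports nothing. The 18 enzymes of synthesis other than TM7SF2 summed to 986 and 1027 TPM in VEH and to 1774 and 1940 TPM with DHT. Their sum lay between 868 and 1146 TPM in all 14 libraries outside the DHT group. TM7SF2 was the most abundant enzyme and was lower in the DHT libraries. With it, the 19 enzymes summed to 1630 and 1487 TPM in VEH and to 2187 and 2236 TPM with DHT.

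With the replicate number as a block in the fit, 20 members were called higher and 4 lower, against 27.4% of all genes called in either direction. All 19 members called without the block were called with it, and the block added MVD, CYP51A1 and SREBF2 among the higher and TM7SF2 and ABCA1 among the lower (3 lower without ABCA1, which passed the filter through VEH and APA.VEH libraries only). When 1 library was left out the count fell from 19 to 11 (without VEH replicate 1), 10 (without VEH replicate 2), 9 (without DHT replicate 1) or 7 (without DHT replicate 2), each a fit with a single library in that arm that was assumed to vary like the other groups. Over all genes the share called fell too in each of these 4 fits, from 10.3% with all libraries. A fit on the VEH and DHT libraries alone called 16 members (6.67% of all genes). It called 2 (1.04% of all genes) when genes were filtered on all 16 libraries instead of on those 4. That version was computed after the data were seen. ACAT2, MVK, IDI1, FDPS, EBP and ABCG1 were called in all 4 fits without 1 library. PMVK, SQLE, NSDHL, DHCR7 and SOAT1, called with all libraries, were called in none of them.

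**Figure D2:**
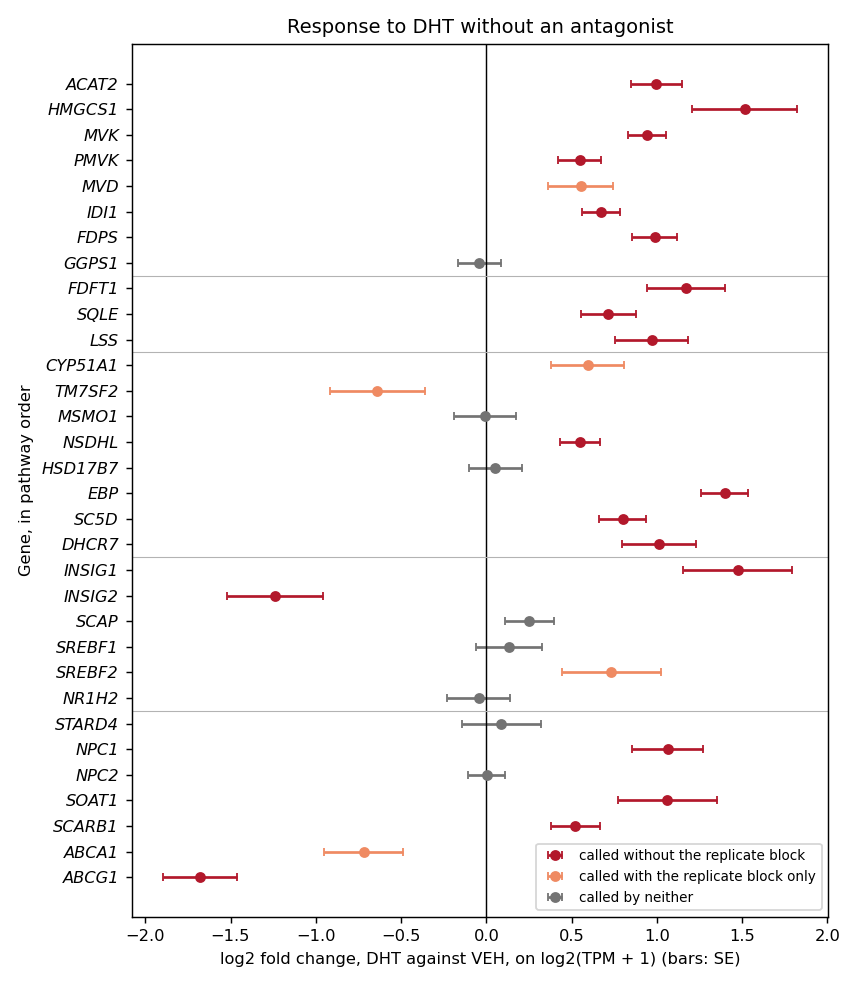
Log2 fold change of DHT against VEH for the 32 genes, with bars for the standard error and colours for the fit in which a gene was called (adjusted p below 0.05). In the first 3 blocks, the enzymes, every called gene without the block lies to the right of 0, while INSIG2 and ABCG1 lie far to the left.

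Of the 8 genes of the mevalonate and isoprenoid steps, 6 rose with DHT. HMGCS1 (chromosome 5, 43287470 to 43313412), the synthase that joins acetyl units just before mevalonate is made, was at 45.2 and 58.7 TPM in VEH libraries and at 139.6 and 159 TPM in DHT libraries, or 51.9 ± 9.52 against 149 ± 13.7 (SD, n = 2). The groups were far apart, and its rise of 1.51 on the log2 scale (SE 0.31, limma adjusted p = 0.00998) was the highest of the list. ACAT2, the thiolase at the head of the pathway, rose by 1.00 on the log2 scale, from 33.7 and 40.2 TPM to 70.4 and 78.6 TPM. The kinases MVK and PMVK rose by 0.94 and 0.55, the isomerase IDI1 by 0.67 and the farnesyl diphosphate synthase FDPS by 0.99. In all of these both DHT libraries lay above both VEH libraries. The decarboxylase MVD, at 39.1 and 29.6 TPM in the VEH libraries and 54.4 and 46.6 TPM in the DHT libraries, had a log2 fold change of 0.55 that missed the threshold (limma adjusted p = 0.0971) and passed with the replicate block (adjusted p = 0.0125). GGPS1, which makes the geranylgeranyl chains used for protein anchors rather than for sterols, was at 60.8 and 59.8 TPM before and 61.5 and 55.8 TPM after DHT, which overlap, with a log2 fold change of -0.04 (95% interval -0.32 to 0.24) that turned positive under median-ratio scaling.

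All 3 genes of the squalene and lanosterol steps rose. FDFT1 (chromosome 8), the squalene synthase that commits isoprenoids to sterol, was at 152.4 and 179 TPM in VEH libraries and at 329 and 422 TPM in DHT libraries, or 166 ± 18.9 against 376 ± 65.8 (SD, n = 2). Replicate 2 was the higher library in both groups, and the groups did not overlap. It rose by 1.17 on the log2 scale (SE 0.23, limma adjusted p = 0.00835). The squalene epoxidase SQLE rose from 24.3 and 27.3 TPM to 43.3 and 42.6 TPM, a log2 fold change of 0.72, and the lanosterol synthase LSS from 47.3 and 34.7 TPM to 85.8 and 75.1 TPM, a log2 fold change of 0.97.

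From lanosterol to cholesterol the response was mixed, with 4 of 8 genes called higher. EBP (chromosome X, 48521808 to 48528716), a sterol isomerase, was at 48.2 and 49.8 TPM in VEH libraries and at 119 and 144 TPM in DHT libraries, or 49 ± 1.12 against 131 ± 17.7 (SD, n = 2). This was a clear gap with little spread in VEH, and the log2 fold change of 1.40 (SE 0.14) had the lowest adjusted p of the list (limma adjusted p = 0.000146). NSDHL, a sterol dehydrogenase of the demethylation steps, rose by 0.55, the desaturase SC5D by 0.80 and DHCR7, the reductase that yields cholesterol itself, by 1.01. CYP51A1, the lanosterol demethylase, was at 46.1 and 52.6 TPM in VEH libraries and at 73.6 and 76.2 TPM in DHT libraries. Its log2 fold change of 0.60 was called only with the block (adjusted p = 0.105 without and 0.0202 with it). MSMO1, the methylsterol oxidase, and HSD17B7, a ketosterol reductase, both overlapped between the groups, with log2 fold changes of -0.01 and 0.05 and 95% intervals of -0.40 to 0.39 and -0.29 to 0.39.

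TM7SF2 was the exception among the enzymes. It was at 645 and 460.3 TPM in VEH libraries and at 413 and 296 TPM in DHT libraries, so replicate 1 was the higher library in both groups. The groups did not overlap, and DHT stood at 0.641 times VEH in replicate 1 and 0.643 times in replicate 2. Its value of -0.64 on the log2 scale (SE 0.28, limma adjusted p = 0.182) missed the threshold and was called lower with the block (adjusted p = 0.000334). Because of its high level, TM7SF2 sets the sum of its step group, at 900.3 ± 124 TPM for VEH against 950.3 ± 48.9 TPM for DHT (SD, n = 2).

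Among the 6 sensors and factors, the INSIG pair moved in opposite directions. INSIG1 (chromosome 7, 155297878 to 155310235) was at 24.6 and 33.4 TPM in VEH libraries and at 72.8 and 90.9 TPM in DHT libraries, or 29 ± 6.26 against 81.8 ± 12.8 (SD, n = 2), and rose by 1.47 on the log2 scale (SE 0.32, limma adjusted p = 0.0141). INSIG2 (chromosome 2, 118088471 to 118110997) was at 45.5 and 65.7 TPM in VEH libraries and at 24 and 21.3 TPM in DHT libraries, or 55.6 ± 14.2 against 22.7 ± 1.94 (SD, n = 2), and fell by 1.24 on the log2 scale (SE 0.28, limma adjusted p = 0.0176). INSIG2 was thus the more abundant of the pair in both VEH libraries, and INSIG1 in both DHT libraries. When 1 library was left out, the log2 fold change ran from 1.26 to 1.69 for INSIG1 and from -1.50 to -0.98 for INSIG2. Neither gene was among the members called in every such fit. The genes encode proteins with a like function in holding SCAP back. The INSIG1 locus overlaps a divergent transcript and another annotated RNA in RefSeq, and whether strand was used in counting was not stated.

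SREBF2, whose product favours cholesterol genes, was at 78.7 and 76.5 TPM in VEH libraries and at 124.4 and 135 TPM in DHT libraries. These libraries were far apart, but its log2 fold change, 0.73 (SE 0.29), missed the threshold in the fit without the block (limma adjusted p = 0.144) and was called with it (adjusted p = 0.0314). The estimate of spread is shared by all groups, ENZ.DHT and APA.DHT included, where the replicates of SREBF2 differed by 0.89 and 0.90 log2 units. SREBF1, whose product leans to fatty acid genes, was at 514 and 386 TPM in the VEH libraries and 521 and 459 TPM with DHT, and the groups overlapped. SCAP, the escort, had a log2 fold change of 0.25 (95% interval -0.06 to 0.56), and NR1H2, the liver X receptor gene, one of -0.05 (95% interval -0.45 to 0.36) whose sign turned under median-ratio scaling.

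Among the 7 genes that move, store or export cholesterol, 3 rose and 1 fell. NPC1 (chromosome 18, 23506184 to 23586506), which passes cholesterol out of lysosomes, was at 86.8 and 57.8 TPM in VEH libraries and at 171 and 130.3 TPM in DHT libraries, or 72.3 ± 20.5 against 151 ± 28.6 (SD, n = 2). It rose by 1.06 (SE 0.21, limma adjusted p = 0.0086), and its lysosomal partner NPC2 was at 82.1 and 85.4 TPM in the VEH libraries and 83.6 and 84.2 TPM in the DHT libraries. The 95% interval of the log2 fold change of NPC2, -0.23 to 0.24, was the narrowest of the list. SOAT1 (chromosome 1, 179293797 to 179358680), which esterifies cholesterol for storage in droplets, was at 12.6 and 14.6 TPM in VEH libraries and at 26.7 and 32.3 TPM in DHT libraries, or 13.6 ± 1.39 against 29.5 ± 3.92 (SD, n = 2), and rose by 1.06 (SE 0.29, limma adjusted p = 0.0408). SCARB1, a receptor for high-density lipoprotein, rose by 0.52 from 73.7 and 58.1 TPM to 95.3 and 93.4 TPM. STARD4, a soluble sterol carrier, was at 23.1 and 21.3 TPM in the VEH libraries and 23.9 and 23.3 TPM with DHT.

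The exporters were ABCG1 and ABCA1. ABCG1 (chromosome 21, 42199689 to 42297244) was at 26.3 and 22.5 TPM in VEH libraries and at 7.57 and 6.31 TPM in DHT libraries, or 24.4 ± 2.67 against 6.94 ± 0.891 (SD, n = 2). It fell by 1.68 on the log2 scale (SE 0.22, limma adjusted p = 0.000816), the lowest value of the list, and both DHT libraries lay under all other 14 libraries. ABCA1 (chromosome 9, 104781006 to 104928155) was at 0.9 and 1.1 TPM in VEH libraries and at 0.17 and 0.26 TPM in DHT libraries, or 1 ± 0.141 against 0.215 ± 0.0636 (SD, n = 2). The fitted difference stood at -0.72 on the log2 scale (SE 0.23), with limma adjusted p = 0.076 without the block and 0.00879 with it. No DHT library reached 1 TPM, so ABCA1 passed the filter only through libraries where it was high, and its calls support nothing on their own. On log2(TPM + 1) the value understates the change of so low a gene.

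**Figure D3:**
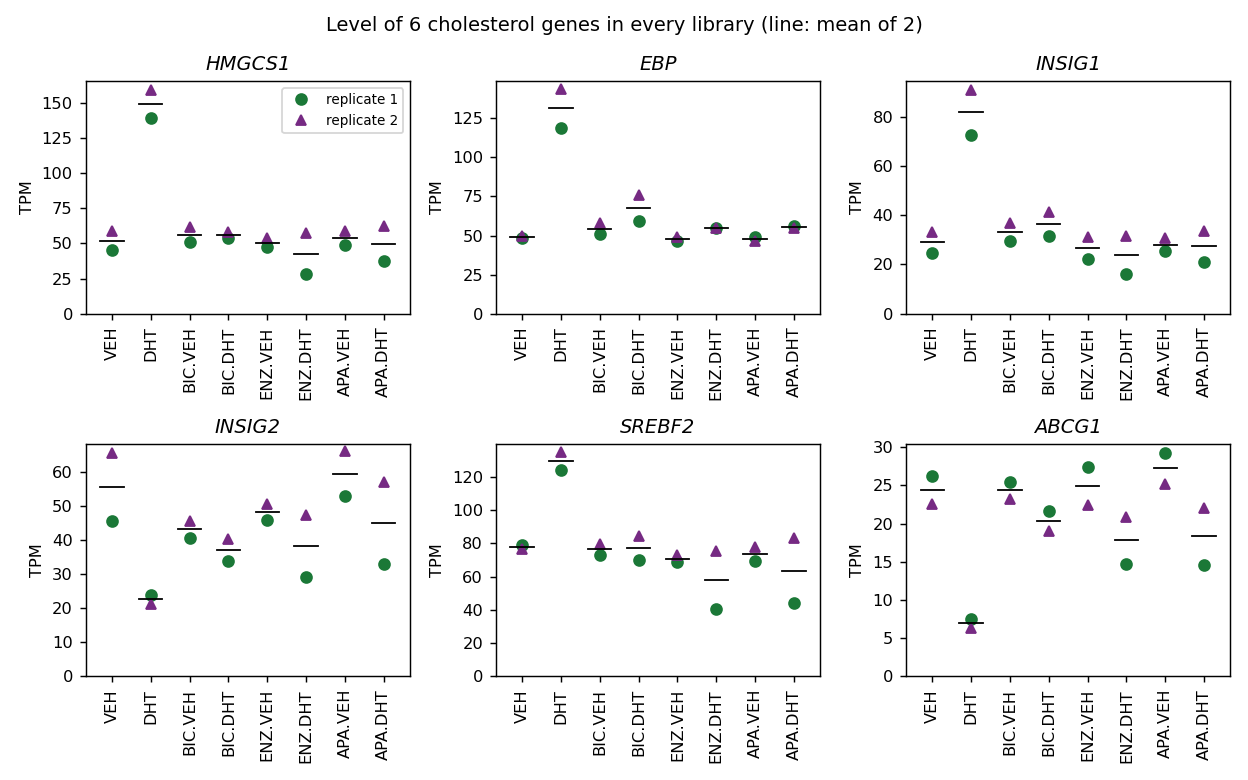
TPM of HMGCS1, EBP, INSIG1, INSIG2, SREBF2 and ABCG1 in every library, with a mark for each replicate and a line at the mean of 2. In the DHT group HMGCS1, EBP, INSIG1 and SREBF2 stand above and ABCG1 and INSIG2 below all other libraries, and in ENZ.DHT and APA.DHT the replicates lie far apart for HMGCS1, SREBF2 and INSIG2.

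A further 33 genes around the pathway that are not members, such as processing proteases, sterol carriers and side branches, were listed for comparison, and 29 were tested. With DHT against VEH none of the 29 was called by limma (0 genes, with 4 at an unadjusted p below 0.05 and 4 called with the block), and their median log2 fold change was 0.09. Over all genes 10.3% were called in either direction, and 27.4% with the block. The difference between the lists was not tested, and both lists were chosen with earlier results of these data known.

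Each antagonist was next compared with DHT alone, to ask how the DHT level of these genes changes when the receptor is blocked. These comparisons and DHT against VEH share the DHT libraries, so they are not independent. In BIC.DHT against DHT, 10 members fell and 1 rose (1.68% of all genes were called lower and 1.45% higher). In ENZ.DHT, 19 fell and 1 rose (4.91% lower and 4.74% higher), and in APA.DHT, 19 fell and 1 rose (4.11% lower and 4.25% higher). The median log2 fold change of the members was -0.60, -0.77 and -0.69 respectively, with a median over all genes of 0.0025, -0.01 and 0. The member that rose was ABCG1 in each case.

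With the replicate block 20 members were lower and 3 higher in BIC.DHT (13.3% of all genes called), 23 and 3 in ENZ.DHT (29.2%) and 22 and 3 in APA.DHT (27.3%). The 3 higher members were ABCG1, INSIG2 and TM7SF2 in each comparison. For BIC.DHT the count of 11 calls thus became 23, with DHCR7, FDFT1, INSIG1, LSS, MVD, PMVK, SCAP, SOAT1, SQLE and SREBF2 the added genes among the lower. In ENZ.DHT the block added MVD, PMVK, SREBF1 and STARD4 to the lower members, and in APA.DHT MVD, NR1H2 and PMVK.

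**Figure D4:**
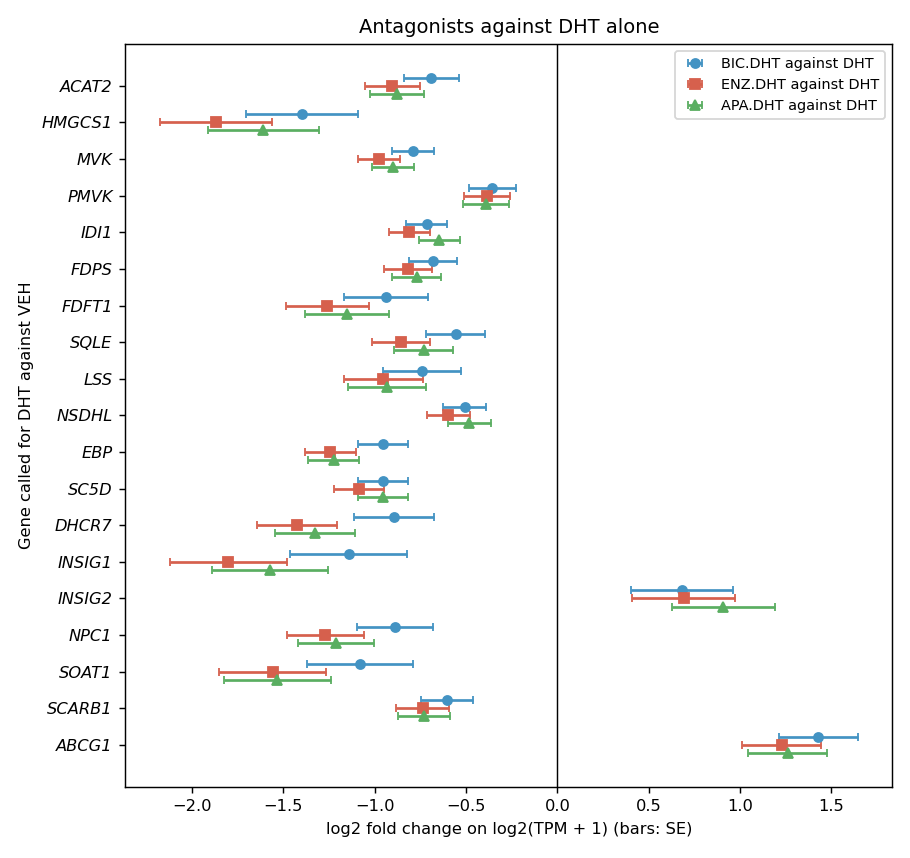
Log2 fold change against DHT alone of the 19 members called in DHT against VEH, with bicalutamide, enzalutamide and apalutamide as separate marks and the standard error as bars. The 17 genes that rose with DHT lie left of 0 with each antagonist, and INSIG2 and ABCG1 lie right of 0, but all were chosen by a comparison that uses the same DHT libraries, so their side of 0 is no independent result.

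The calls depended on single libraries and on the groups in the fit. Fits on only the 2 groups of a comparison called 2, 5 and 3 members against DHT for BIC.DHT, ENZ.DHT and APA.DHT. They called 0.609%, 1.63% and 1.26% of all genes. When 1 library was left out, the share of all genes called also fell, except without replicate 2 of ENZ.DHT or of APA.DHT. For BIC.DHT the count of 11 became 4 without DHT replicate 1, 1 without DHT replicate 2, 1 without BIC.DHT replicate 1 and 2 without BIC.DHT replicate 2. For ENZ.DHT the 20 calls became 14 without DHT replicate 1, 8 without DHT replicate 2, 11 when replicate 1 of ENZ.DHT was left out and 18 when its replicate 2 was. For APA.DHT the 20 calls became 12 without DHT replicate 1, 5 without DHT replicate 2, 13 without APA.DHT replicate 1 and 17 without APA.DHT replicate 2. MVK, EBP, SC5D and DHCR7 were called in all 4 fits without 1 library with both enzalutamide and apalutamide. LSS and SCAP, called with all libraries, were called in none of these fits with either drug. With bicalutamide no member was called in all 4, and HMGCS1, ACAT2, FDPS, NSDHL, NPC1 and SCARB1 were called in none.

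Among the enzymes, HMGCS1 was at 53.8 and 58.3 TPM in BIC.DHT, 27.9 and 57.4 TPM in ENZ.DHT and 37.2 and 62.3 TPM in APA.DHT, against 139.6 and 159 TPM with DHT. All 6 libraries lay below both DHT libraries. It fell by 1.40 (SE 0.31, limma adjusted p = 0.0347), 1.87 (SE 0.31, limma adjusted p = 0.00382) and 1.61 (SE 0.31, limma adjusted p = 0.00882) on the log2 scale. EBP was at 59.2 and 76 TPM in BIC.DHT, 54.8 and 54.7 TPM in ENZ.DHT and 55.9 and 54.9 TPM in APA.DHT. It fell by 0.95 (SE 0.14, limma adjusted p = 0.00416), 1.24 (SE 0.14, limma adjusted p = 0.000382) and 1.23 (SE 0.14, limma adjusted p = 0.000398). BIC.DHT replicate 2 was the highest of these 6 libraries, and all stayed below the lower DHT library at 119 TPM.

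FDFT1 was at 168 and 224 TPM in BIC.DHT, 128.2 and 188 TPM in ENZ.DHT and 147 and 191 TPM in APA.DHT, with replicate 2 the higher each time. It fell by 1.26 (SE 0.23, limma adjusted p = 0.00681) with enzalutamide and by 1.15 (SE 0.23, limma adjusted p = 0.0109) with apalutamide. With bicalutamide its value of -0.94 (log2, SE 0.23, limma adjusted p = 0.052) missed the threshold and passed it with the block (adjusted p = 0.000133). Across the remaining enzymes called with DHT, ACAT2, MVK, IDI1, FDPS, NSDHL and SC5D fell with all 3 antagonists, SQLE, LSS and DHCR7 with enzalutamide and apalutamide, and PMVK with none without the block. CYP51A1, which was not called with DHT alone, fell by 0.94 in ENZ.DHT (limma adjusted p = 0.0199) and by 0.83 in APA.DHT (limma adjusted p = 0.0367), from 73.6 and 76.2 TPM to 30.5 and 48.6 TPM and to 33.9 and 51.6 TPM. Without replicate 1 of ENZ.DHT or of APA.DHT, the lower library in each pair, the log2 fold change of CYP51A1 was -0.61 and -0.53, and it was no longer called there or without either DHT library.

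Of the sensors, INSIG1 was at 31.8 and 41.5 TPM in BIC.DHT, 16.1 and 31.6 TPM in ENZ.DHT and 21.1 and 33.6 TPM in APA.DHT, against 72.8 and 90.9 TPM with DHT. It fell by 1.80 (SE 0.32, limma adjusted p = 0.00614) with enzalutamide and by 1.57 (SE 0.32, limma adjusted p = 0.0125) with apalutamide. With bicalutamide it stood at -1.14 (log2, SE 0.32, limma adjusted p = 0.0894), called with the block (adjusted p = 0.000855). INSIG2 was at 33.8 and 40.3 TPM in BIC.DHT, 29.1 and 47.4 TPM in ENZ.DHT and 32.9 and 57 TPM in APA.DHT, all above both DHT libraries at 24 and 21.3 TPM. Its log2 fold changes of 0.68, 0.69 and 0.91 (SE 0.28 each) were not called without the block (limma adjusted p = 0.27, 0.147 and 0.0714) and were with it (adjusted p = 0.0401, 0.0209 and 0.00594).

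SREBF2 fell with enzalutamide and apalutamide, by 1.21 (SE 0.29, limma adjusted p = 0.0257) and 1.09 (SE 0.29, limma adjusted p = 0.0432). Its libraries were at 70 and 84.6 TPM in BIC.DHT, 40.4 and 75.6 TPM in ENZ.DHT and 44.1 and 83.1 TPM in APA.DHT, so the replicates of the latter 2 groups stood further apart on the log2 scale, by 0.89 and 0.90, than DHT and VEH did at 0.73. Leaving out replicate 1 of ENZ.DHT or of APA.DHT gave log2 fold changes of -0.77 and -0.64 for SREBF2, which was no longer called there or without either DHT library. SCAP, at 62.5 and 63.4 TPM with DHT, fell by 0.53 to 41.1 and 45.4 TPM in ENZ.DHT (limma adjusted p = 0.0384) and by 0.57 to 41.6 and 42.6 TPM in APA.DHT (limma adjusted p = 0.0314). Neither call was kept when any 1 library of its comparison was left out. The log2 fold change of SCAP then ran from -0.60 to -0.46 in ENZ.DHT and from -0.59 to -0.55 in APA.DHT.

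In the last group, NPC1 was at 86 and 74.8 TPM in BIC.DHT, 59.6 and 63.1 TPM in ENZ.DHT and 66.3 and 61.4 TPM in APA.DHT. It fell by 0.89 (SE 0.21, limma adjusted p = 0.0465), 1.27 (SE 0.21, limma adjusted p = 0.00399) and 1.21 (SE 0.21, limma adjusted p = 0.00524). SCARB1 fell by 0.60, 0.74 and 0.73. SOAT1 was at 13.4 TPM in both BIC.DHT libraries, 6.99 and 12.3 TPM in ENZ.DHT and 6.47 and 13.8 TPM in APA.DHT, and fell by 1.56 (SE 0.29, limma adjusted p = 0.00785) with enzalutamide and 1.53 (SE 0.29, limma adjusted p = 0.00877) with apalutamide. Its log2 fold change with bicalutamide, -1.08 (SE 0.29, limma adjusted p = 0.0779), passed only with the block (adjusted p = 0.0111). All 6 of these libraries lay under the DHT libraries at 26.7 and 32.3 TPM.

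ABCG1 rose with each antagonist. It was at 21.6 and 19 TPM in BIC.DHT, 14.7 and 20.9 TPM in ENZ.DHT and 14.6 and 22.1 TPM in APA.DHT, against 7.57 and 6.31 TPM with DHT alone. The log2 fold changes were 1.43 (SE 0.22, limma adjusted p = 0.0051), 1.23 (SE 0.22, limma adjusted p = 0.00569) and 1.26 (SE 0.22, limma adjusted p = 0.00511). ABCA1 was at 0.45 and 0.93 TPM in BIC.DHT, 0.37 and 0.82 TPM in ENZ.DHT and 0.39 and 0.99 TPM in APA.DHT, above both DHT libraries, with log2 fold changes of 0.46, 0.38 and 0.45 (SE 0.23 each) that were called in neither fit (limma adjusted p = 0.388, 0.322 and 0.254 without the block). TM7SF2 had log2 fold changes of 0.29, 0.44 and 0.44, called only with the block (adjusted p = 0.0439, 0.00297 and 0.00343).

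Of the 29 tested genes around the pathway, limma called 0 in BIC.DHT against DHT (2 at an unadjusted p below 0.05 in that fit, and 2 called with the block), 2 in ENZ.DHT (15 with the block) and 1 in APA.DHT (9 with the block). Over all genes 3.13%, 9.65% and 8.36% were called in these 3 comparisons, and 13.3%, 29.2% and 27.3% with the block. The oxysterol-binding protein gene OSBP fell by 0.91 in ENZ.DHT and by 0.86 in APA.DHT, and the lipoprotein receptor gene LRP8 fell by 0.88 in ENZ.DHT. These were named after their values were seen.

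Cells that received DHT with an antagonist were then set against VEH, to measure what was left of the DHT response. Limma called 0 of 32 members in BIC.DHT, ENZ.DHT and APA.DHT against VEH, with 3, 1 and 1 at an unadjusted p below 0.05 and 0 called with the block. Over all genes 0.012%, 0.00601% and 0% were called, so these comparisons made almost no calls anywhere. The members had a median difference, on the log2 scale, of 0.00085, -0.23 and -0.11, and all genes tested one of -0.09, -0.12 and -0.10. EBP had the highest value in BIC.DHT against VEH, 0.45 (95% interval 0.14 to 0.75, limma adjusted p = 0.726), with both BIC.DHT libraries above both VEH libraries. The same gene was at 0.16 (95% interval -0.15 to 0.46) in ENZ.DHT and 0.17 (95% interval -0.13 to 0.48) in APA.DHT. INSIG2 had the lowest value in BIC.DHT against VEH, -0.56 (95% interval -1.17 to 0.06), and STARD4 in ENZ.DHT against VEH, -0.60 (95% interval -1.11 to -0.09).

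The effect of DHT was also taken within each antagonist. In the cells given bicalutamide, enzalutamide or apalutamide, with DHT against without it, limma called 0 members, 1 stood at an unadjusted p below 0.05 in each, the block called 0, and 0%, 0.00601% and 0.00601% of all genes were called. ABCG1 had the lowest log2 fold change in each, at -0.25, -0.48 and -0.57, and its interval was -0.73 to 0.22 with bicalutamide, -0.95 to -0.00141 with enzalutamide and -1.05 to -0.10 with apalutamide.

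Whether an antagonist altered the size of the DHT response was tested as an interaction. It was called negative for 3 members with bicalutamide (0.667% of all genes were called lower), 4 with enzalutamide (1.05%) and 3 with apalutamide (0.805%). MVK, EBP and SC5D were called with each drug. For MVK the response was smaller by 0.93 log2 units with bicalutamide, 1.06 with enzalutamide and 0.84 with apalutamide, for EBP by 1.10, 1.20 and 1.18 and for SC5D by 0.98, 0.93 and 0.99. IDI1 was called with enzalutamide, with a difference of -0.74. With the replicate block the calls rose to 13 lower and 1 higher (6.39% of all genes), 18 lower and 1 higher (9.91%) and 16 lower and 2 higher (10.1%), with ABCG1 the higher member in each and TM7SF2 the other one with apalutamide. Leaving out 1 of the 8 libraries of a comparison gave 0 or 1 calls for bicalutamide, 1 or 2 for enzalutamide except 5 without ENZ.DHT replicate 2, and 0 or 1 for apalutamide except 5 without APA.DHT replicate 2.

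Without DHT no change of a member was detected with an antagonist. In BIC.VEH, ENZ.VEH and APA.VEH against VEH, limma called 0 members, 0, 0 and 1 stood at an unadjusted p below 0.05, and the block called 0, while 0%, 0% and 0.00601% of all genes were called. Over the members the median difference, on the log2 scale, was 0.01, -0.03 and -0.02, and over all genes tested -0.02, -0.0029 and -0.02. The lowest were STARD4 with bicalutamide and enzalutamide, at -0.37 (95% interval -0.88 to 0.14) and -0.27 (95% interval -0.78 to 0.24), and NPC1 with apalutamide, at -0.49 (95% interval -0.95 to -0.03).

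The antagonists were given at the same dose, 10 µM, for the same 48 h. Their readouts with DHT were compared in 3 pairs, or 96 comparisons of a member in a pair. Limma called 0 of them, with 1 member at an unadjusted p below 0.05 for ENZ.DHT against BIC.DHT and 0 for each of the other pairs, and 0 called with the block. Over all genes 0.00601% were called for ENZ.DHT against BIC.DHT, 0% for APA.DHT against BIC.DHT and 0.00601% for APA.DHT against ENZ.DHT. Enzalutamide and apalutamide share a diarylthiohydantoin core that bicalutamide lacks. Their libraries had lower values than those of bicalutamide in most members: 26 of 32 differences were negative for ENZ.DHT against BIC.DHT and 23 of 32 for APA.DHT against BIC.DHT, with medians of -0.13 and -0.12. Over all genes 44.3% and 46.9% of the differences were above 0, with medians of -0.03 and -0.01. The part of the shared core, or of a receptor block that may differ at an equal dose, was not tested. These pairs share the BIC.DHT libraries, and replicate 1 of ENZ.DHT and of APA.DHT was the low library of its group for several members, as described with the replicates. The lowest difference between enzalutamide and bicalutamide was that of INSIG1, -0.66 (95% interval -1.36 to 0.04), and between apalutamide and bicalutamide that of SOAT1, -0.45 (95% interval -1.09 to 0.19). Between apalutamide and enzalutamide the highest was STARD4, at 0.48 (95% interval -0.03 to 0.99). The 95% interval reached a median of 0.416 to either side of the difference over the members, from 0.237 for NPC2 to 0.703 for INSIG1 without the block, and a median of 0.289 with it.

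By the count of members with a wide gap, the replicates of ENZ.DHT and APA.DHT stood further apart than those of the other 6 groups. In ENZ.DHT 7 members and in APA.DHT 6 members were at least 1.5-fold higher in replicate 2 than in replicate 1 on TPM + 1, against 0 in the other 6 groups. Over all genes 15.3% and 18.7% were, against 4.8% to 7.95% in the other 6 groups, so the wider gap was not particular to the members. Replicate 1 lay below both VEH libraries in 20 members in ENZ.DHT and 19 in APA.DHT (52.9% and 53.2% of all genes), and replicate 2 in 13 and 10 (41.3% and 33.1%). The genes with such gaps were HMGCS1, CYP51A1, INSIG1, INSIG2, SREBF2 and SOAT1 in both groups and DHCR7 in ENZ.DHT. The sum of dividing-cell genes was also lower in replicate 1, at 12.8 against 51.9 TPM in ENZ.DHT and 16.7 against 52.6 TPM in APA.DHT. Mitochondrial genes held 19.4% against 16.9% and 19.2% against 16.2%. Their part in the result was not tested.

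A smaller difference between replicate numbers ran through all groups. HMGCS1, FDFT1, CYP51A1, INSIG1 and ABCA1 were higher in replicate 2 in all 8 groups, and LSS, TM7SF2, SCARB1 and NR1H2 were higher in replicate 1 in all 8. The median gap was largest for TM7SF2, at 0.47 log2 units, and for INSIG1, at -0.40 (replicate 1 minus replicate 2). Read within a replicate number, DHT over VEH was 3.09 and 2.71 for HMGCS1, 2.97 and 2.72 for INSIG1, 2.47 and 2.89 for EBP, 0.528 and 0.324 for INSIG2 and 0.288 and 0.28 for ABCG1, as ratios of TPM in replicates 1 and 2. The direction was the same in both replicate numbers for each of these genes, which followed from their DHT libraries lying beyond all others. Over the whole list it differed only for GGPS1 (1.01 and 0.933), MSMO1 (0.958 and 1.03), NPC2 (1.02 and 0.986) and NR1H2 (0.871 and 1.08).

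Some values carry a further limit from the annotation. In RefSeq on GRCh38.p14, 20 of the 32 members overlap another annotated gene, among them ACAT2 with TCP1, MVK with MMAB and NPC1 with RMC1. Copies, found only as a member's symbol followed by P and a number, could share reads with HSD17B7 and CYP51A1. The copy HSD17B7P2 was listed at 2.7 to 7.95 TPM and CYP51A1P2 at 0.66 to 3.2 TPM. The 8 listed copies of FDPS reached at most 0.17 TPM.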

How the data were processed

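The deposited values were TPM per gene symbol, 1 column for each of 16 libraries (2 per group). Per the labels and the submitters' processing notes, stranded polyadenylated RNA libraries were sequenced as 125 bp pairs (about 40 M pairs each), checked with FastQC 0.11.9, trimmed with Trim Galore 0.6.5, aligned to GRCh38 with STAR 2.7.2b and quantified by the authors with RSEM 1.3.3. The strand setting was not stated. TPM keeps no depth, so precision came from replicates alone. TPM is also relative: a gain in abundant genes lowers the rest.

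Genes with at least 1 TPM in 2 libraries were tested on log2(TPM + 1) with limma 3.58.1 (trend) in R 4.3.3, as 8 group means over all 16 libraries, with Benjamini-Hochberg adjustment over all tested genes. Alternatives were a pseudocount of 0.1, no filter, median-ratio scaling, a replicate block, only the groups compared, and leaving out each library. The fit was tested on simulated data. Equal replicate numbers deviated together in all 28 pairs of groups (correlation of deviations from the group means 0.204 to 0.635). The replicate block therefore took the numbers to pair libraries, a pairing the labels give only as a replicate number. The main fit and the fits on fewer libraries left this pairing out.

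Full statistics were given for the 6 members of highest fold change with DHT, the 3 of lowest (group mean of at least 1 TPM) and members called lower. In fits on fewer libraries the filter read the libraries fitted; the other reading is given with the alternatives, as chosen after seeing the data. Members and lists were chosen with earlier results of these data known. Protein tables were not used.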

Additional observations from a re-analysis of the deposited data

Results flagged for a closer look

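The interaction test asked whether the response to DHT differed between cells with and without an antagonist, and it passed the threshold for 10 combinations of gene and drug. For MVK the difference in log2 response (with the drug minus without it) was -0.93 with bicalutamide, -1.06 with enzalutamide and -0.84 with apalutamide (limma adjusted p = 0.024, 0.00833 and 0.0283). For EBP it was -1.10, -1.20 and -1.18 (limma adjusted p = 0.0271, 0.0111 and 0.0139), and for SC5D -0.98, -0.93 and -0.99 (limma adjusted p = 0.042, 0.0404 and 0.0326). For IDI1 it was -0.74 with enzalutamide (limma adjusted p = 0.0417). The 3 interactions share the DHT and VEH libraries. Groups of 2 libraries are too small to test for a single library far from its group.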

How the results depend on the processing

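TPM without depth, 2 cultures a group and a single cell line limit these results. In the comparisons of DHT with VEH and of each antagonist with DHT, the lowest and highest count of called members over fits without 1 library was 7 and 11 for DHT against VEH (19 with all libraries), 1 and 4 for BIC.DHT (11), 8 and 18 for ENZ.DHT (20) and 5 and 17 for APA.DHT (20). For the interactions it was 0 and 1 with bicalutamide (3), 1 and 5 with enzalutamide (4) and 0 and 5 with apalutamide (3). Fewer libraries were in these fits. The share of all genes called fell in each, except ENZ.DHT and APA.DHT against DHT without replicate 2 of that antagonist group. Fitted on the compared groups alone, 2 members were called for BIC.DHT, 5 for ENZ.DHT and 3 for APA.DHT against DHT, 0 for the interactions of enzalutamide and apalutamide, and 16 for DHT against VEH. These fits filtered genes on the libraries fitted. Over all genes they called 0.609%, 1.63% and 1.26% for the antagonists against DHT. The shares were 0.309% and 0.292% for the interactions of enzalutamide and apalutamide, and 6.67% for DHT against VEH. The same fits were run with genes filtered on all 16 libraries, which leaves in genes at 0 in every library of a small fit. They then called 2 members in DHT against VEH (1.04% of all genes) and 0 in the antagonist comparisons with DHT (0%, 0.0421% and 0%). In the interactions of enzalutamide and apalutamide they called 0 members (0.258% and 0.216% of all genes). Both sets of counts had been seen when the filter on the fitted libraries was kept as the one to report, and the second set was added afterwards. Leaving out 1 library with that filter gave 11, 10, 10 and 8 calls for DHT against VEH (VEH replicates 1 and 2, then DHT replicates 1 and 2) and, leaving out DHT and then the antagonist's libraries in the same way, 5, 1, 1 and 2 for BIC.DHT, 14, 9, 11 and 18 for ENZ.DHT and 12, 5, 13 and 17 for APA.DHT. The replicate block raised the counts to 23 for BIC.DHT against DHT and to 14, 19 and 18 for the interactions, and median-ratio scaling raised the interactions to 5, 8 and 7. Beyond the calls named beside the results and these counts, the block changed no other call.

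Of genes not called, DHT against VEH turned positive under median-ratio scaling for GGPS1 (0.0917), MSMO1 (0.12) and NR1H2 (0.0866). Over the fits without 1 library, the log2 fold change for DHT against VEH ran from -0.11 to 0.028 for GGPS1, -0.16 to 0.14 for MSMO1, -0.10 to 0.21 for HSD17B7, -0.073 to 0.34 for SREBF1, -0.0254 to 0.0308 for NPC2 and -0.27 to 0.18 for NR1H2. Against DHT it ran from -0.19 to 0.12 for HSD17B7 and -0.0774 to 0.17 for NPC2 in BIC.DHT, from -0.0645 to 0.24 for HSD17B7 in ENZ.DHT, and from -0.24 to 0.11 for MSMO1, -0.22 to 0.085 for HSD17B7 and -0.032 to 0.0109 for NPC2 in APA.DHT. A pseudocount of 0.1 or no filter changed no direction and moved no count of members called by over 1.5 times.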
